A study of Mus musculus with 60 samples.

Results

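A set of 9 genes that mark tissue macrophages, Cd163, Mrc1, Lyve1, Folr2, F13a1, Lyz2, Cd14, Csf1r and Cx3cr1, was followed through heart, gastrocnemius muscle and neocortex of male B6C3F1 mice, a hybrid of the C57BL/6 and C3H/He strains. The set was given by gene name, with earlier results of these data known. Their symbols are carried by 13 of the 45101 probe sets on the Affymetrix Mouse Genome 430 2.0 array, 3 for Csf1r, 2 each for Lyve1 and Cx3cr1 and 1 for each of the other 6 genes, and they are 9 of the 18193 genes that a probe set with a single symbol measures. Old CR mice ate a calorie restricted diet, which the labels call 40% restricted although the methods describe a smaller cut in energy intake. Old resveratrol mice ate the control diet (AIN93M) with resveratrol added to reach 4.9 mg per kg of body weight per day. Old control mice ate the control diet alone throughout. All of these animals were 30 months old, CR and resveratrol had been started at 14 months, and young control mice were 5 months old. Every tissue and group had 5 arrays (60 in all), each with RNA of 1 animal, and the labels call them biological replicates.

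Macrophages that settle in solid tissues clear dead cells, iron and debris, and depend for survival on signals through the receptor Csf1r. In heart and muscle those of the interstitium and of vessel walls typically carry the scavenger receptor Cd163, the mannose receptor Mrc1, the hyaluronan receptor Lyve1 and the folate receptor Folr2. In brain the parenchymal macrophages are the microglia, which carry Csf1r and the fractalkine receptor Cx3cr1, while macrophages along vessels and meninges carry Cd163, Mrc1 and Lyve1. None of the genes is restricted to macrophages in full: Lyve1 also marks lymphatic endothelium, F13a1 is found in megakaryocytes, and Lyz2 and Cd14 in monocytes and neutrophils. In RNA of a whole tissue, more cells of a type and more RNA per cell cannot be told apart.

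The promoters of 3 genes that rose together in old hearts on both diets are shown as RefSeq sequence of GRCm38.p6, from 250 bases before to 50 bases after the annotated start of transcription, to set their DNA beside their signals. The windows are chr6:124304401-124304700 (plus strand) for Cd163, chr2:14229164-14229463 (plus strand) for Mrc1 and chr10:117282223-117282522 (minus strand) for Lyz2. Capitals mark the letters GAGGAA, a core bound by the myeloid factor PU.1, and CCAAT, each on either strand.
Cd163: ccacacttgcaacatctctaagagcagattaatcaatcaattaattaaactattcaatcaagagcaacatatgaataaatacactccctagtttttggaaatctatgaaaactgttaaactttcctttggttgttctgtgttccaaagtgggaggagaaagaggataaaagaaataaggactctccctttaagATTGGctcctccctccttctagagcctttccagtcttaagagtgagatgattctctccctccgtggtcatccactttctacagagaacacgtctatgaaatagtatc
Mrc1: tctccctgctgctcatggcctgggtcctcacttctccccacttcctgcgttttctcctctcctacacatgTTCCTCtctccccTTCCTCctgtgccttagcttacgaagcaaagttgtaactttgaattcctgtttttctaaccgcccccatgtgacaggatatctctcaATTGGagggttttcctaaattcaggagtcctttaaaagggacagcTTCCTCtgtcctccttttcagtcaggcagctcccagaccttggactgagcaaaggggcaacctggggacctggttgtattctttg
Lyz2: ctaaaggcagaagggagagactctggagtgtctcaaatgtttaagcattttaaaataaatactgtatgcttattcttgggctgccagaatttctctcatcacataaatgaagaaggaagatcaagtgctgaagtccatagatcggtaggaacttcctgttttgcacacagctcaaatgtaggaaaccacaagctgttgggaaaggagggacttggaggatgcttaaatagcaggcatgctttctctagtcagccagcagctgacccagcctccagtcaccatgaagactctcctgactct
The window of Mrc1 held GAGGAA 3 times and CCAAT once, that of Cd163 held CCAAT once, and that of Lyz2 held neither. Of all 32851 promoter windows of this length, 28.3% held GAGGAA and 37.4% held CCAAT, with no overlap of the motifs in the windows shown. Promoters of 6 of the 9 genes matched the table, with 8 windows in all, of which 3 held GAGGAA and 4 held CCAAT. A match of letters is a description of the window and not evidence of binding.

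Signals are the linear values of the array software, scaled by the authors to a trimmed mean of 500 on every array, and where several probe sets carry a symbol the brightest one represents the gene. Genes entered the tests of a tissue if their mean signal was at or above the 40th percentile, a signal of 60.4 in heart, 69.3 in gastrocnemius and 57.3 in neocortex. All 9 genes passed in heart, 8 in gastrocnemius (not Cx3cr1) and 7 in neocortex (not Cd163 and Lyve1). Cd163 had a geometric mean signal of 478.7 over the 20 hearts, 583.4 in gastrocnemius and 35.9 in neocortex, where its highest array read 92.1. Lyve1 had 1271 in heart, 554 in gastrocnemius and 40.6 in neocortex. Mrc1 had 1311, 1089 and 163.1 in the same order, and F13a1 had 2158, 1176 and 107.9. The arrays of heart and muscle overlapped for Cd163, Mrc1, Lyve1 and F13a1, and no neocortex array reached any heart or muscle array for these 4 genes. Lyz2 was highest in heart (5725, arrays 3307 to 9238), lower in gastrocnemius (1962, arrays 943.9 to 4006) and lowest in neocortex (506.2, arrays 201 to 1438), with overlap between neighbours in that order. Csf1r had 4963 in heart, 2351 in gastrocnemius and 4037 in neocortex, with arrays of all tissues overlapping. Cx3cr1 ran the other way, at 779.1 in neocortex (arrays 509.4 to 1024) against 83.8 in heart (arrays 25.3 to 305.9) and 51.2 in gastrocnemius. Cd14 (567.3, 287.8 and 227.8) and Folr2 (430.3, 209.0 and 64.1) were highest in heart.

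Does a diet eaten from middle age alter these markers in the old heart? Under CR, 6 of the 9 genes rose and none fell, against 7.94% of 13285 genes that rose and 14.1% that fell (22.0% changed in either direction). Their median log2 change was 0.585, beside 0.000478 over all genes tested. Changes are log2 differences with the standard error (SE) of a limma fit of the 4 groups, and rose or fell is used of a Benjamini-Hochberg adjusted p under 0.05 over all genes of the tissue. Cd163, the receptor that takes up haemoglobin bound to haptoglobin, read 1069, 992.6, 881.6, 520.3 and 818.2 in old CR hearts, against 283.2, 244.8, 306.8, 333.7 and 283.0 in old control hearts. Every CR heart lay above every control heart, and the change was 1.53 (SE 0.226, a fold of 2.88, adjusted p = 2.43e-05). Lyz2, the lysozyme of myeloid cells, read 6042, 5478, 7597, 5737 and 8845 in old CR hearts, against 4346, 3307, 4975, 3619 and 3853 in old control hearts. These groups did not overlap either, with a change of 0.74 (SE 0.150, adjusted p = 0.000854). Mrc1, which takes up mannose-bearing glycoproteins, read between 1380 and 1542 in the 5 old CR hearts (median 1516), against 763 to 1290 in old controls (median 845.6). Its CR hearts were the tightest group of this gene, and it rose by 0.61 (SE 0.140, adjusted p = 0.00234). Csf1r, the receptor of the growth factors Csf1 and Il34, read 6064 to 6627 in old CR hearts (median 6293), against 3723 to 5141 in old controls (median 4760), again without overlap. It rose by 0.49 (SE 0.101, adjusted p = 0.000878), so that 4 genes had groups that did not overlap, against 6.82% of all genes with every CR heart above every control heart. Lyve1 read 1740, 1231, 1517, 1876 and 1954 in old CR hearts, against 815.1, 741.4, 1024, 1414 and 991.8 in old control hearts, a rise of 0.76 (SE 0.186, adjusted p = 0.00443). Cd14, a co-receptor for lipopolysaccharide, averaged 716.4 ± 156.5 (SD, n = 5) in old CR hearts and 484.9 ± 132.2 in old control hearts, with overlap. It rose by 0.58 (SE 0.187, adjusted p = 0.026). F13a1, the catalytic subunit of clotting factor XIII, averaged 2248 ± 296.5 in old CR hearts and 1851 ± 250.3 in old control hearts and did not pass the test (0.28, adjusted p = 0.0847). Old CR heart 2 read 1725 for this gene and the other 4 read 2304 to 2450, and without it the adjusted p was 0.0208. The gene also passed after quantile normalization (adjusted p = 0.0352) and with array weights (adjusted p = 0.0388). Folr2 (0.31, adjusted p = 0.311) did not pass, and Cx3cr1, with 3 of 5 CR hearts under the filter signal, had a change of -0.65 with a 95% confidence interval of -1.93 to 0.633.

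**Figure D1:**
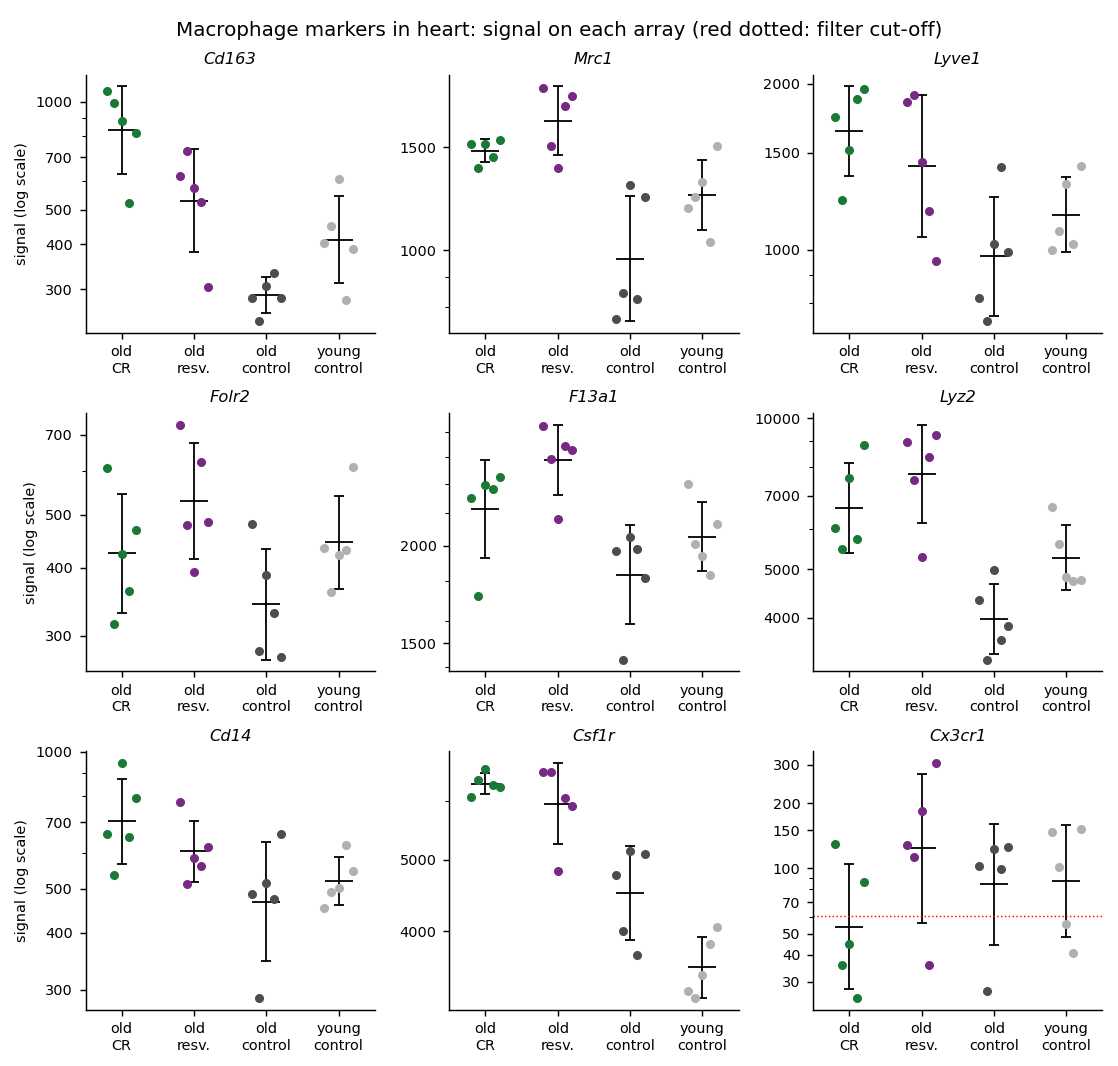
Signal of the 9 macrophage markers on each heart array (vertical axes on a log scale, one panel per gene), in old CR, old resveratrol, old control and young control mice. Points are the 5 arrays of a group, the wide mark is the mean of log2 signal with bars of 1 SD, and the red dotted line, drawn where signals come near it, is the filter signal of 60.4. For Cd163, Mrc1, Lyz2 and Csf1r all 5 old CR hearts lie above all 5 old control hearts.

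Under resveratrol 7 of the 9 genes rose in old hearts and none fell, against 7.08% of 13285 genes that rose and 10.5% that fell (17.5% changed), with a median change of 0.554 beside 0.00926 over all genes. Lyz2 read 8967, 7540, 5289, 8375 and 9238 in old resveratrol hearts, all above the highest old control heart of 4975. It rose by 0.96 (SE 0.150, adjusted p = 7.23e-05). Mrc1 read 1380 to 1892 in old resveratrol hearts (median 1766), against 763 to 1290 in old controls, a rise of 0.78 (SE 0.140, adjusted p = 0.000306). F13a1 read 2849, 2586, 2164, 2685 and 2649 in old resveratrol hearts, against 1971, 1430, 2055, 1980 and 1820 in old control hearts, and rose by 0.49 (SE 0.116, adjusted p = 0.00403). The groups of these 3 genes did not overlap, against 5.75% of all genes with every resveratrol heart above every control heart. Cd163 read 622, 728.6, 574, 524.8 and 305.4 in old resveratrol hearts, so that 4 of 5 lay above the highest control of 333.7, and rose by 0.88 (SE 0.226, adjusted p = 0.00774). Csf1r rose by 0.40 (SE 0.101, adjusted p = 0.00627), with 4830 to 6568 in old resveratrol hearts and 3723 to 5141 in old controls. Lyve1 averaged 1466 ± 415.1 in old resveratrol hearts and 997.2 ± 261.2 in old control hearts, and rose by 0.54 (SE 0.186, adjusted p = 0.0432). Folr2 averaged 542.2 ± 134.3 in old resveratrol hearts and 350.7 ± 85.5 in old control hearts, and rose by 0.63 (SE 0.209, adjusted p = 0.0383). Cd14 (0.37, adjusted p = 0.197) and Cx3cr1 (0.55, adjusted p = 0.606) did not pass.

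Both diets were set against the same old control hearts, so the changes above are not independent of each other. Old CR and old resveratrol hearts were therefore also compared directly, where none of the 9 genes passed with limma, against 4.0% of 13285 genes. At an unadjusted p under 0.05, 1 of the 9 passed (17.3% of all genes), Cd163, which averaged 856.2 ± 211.3 in old CR hearts and 551.0 ± 156.6 in old resveratrol hearts (CR minus resveratrol 0.65, 95% confidence interval 0.185 to 1.12, adjusted p = 0.114, adjusted p = 0.0469 without old CR heart 4). For Mrc1 the difference of CR minus resveratrol was -0.17 (-0.458 to 0.119), for Lyz2 -0.22 (-0.533 to 0.0865), for Lyve1 0.21 (-0.171 to 0.595) and for Csf1r 0.09 (-0.117 to 0.297), and these intervals leave room for differences of either sign.

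The calls of Cd163, Mrc1, Lyz2, Lyve1 and Csf1r under CR and of Cd163, Mrc1, Lyz2, F13a1 and Csf1r under resveratrol held without any 1 of the 20 hearts. Cd14 under CR was lost without old control heart 2 (adjusted p = 0.0963) or old CR hearts 3 (0.0863) or 5 (0.0614). Folr2 under resveratrol was lost without old control hearts 2, 4 or 5 or old resveratrol hearts 1 or 4 (adjusted p = 0.0693 to 0.125), and Lyve1 without any 1 of 9 hearts (young control 2, old control 1, 2, 3 and 5, old CR 1 and old resveratrol 1, 2 and 3, adjusted p = 0.0502 to 0.132). Probe sets of a gene are named here by their signal in heart, and the genes above are given by the brightest. The dimmer probe set of Lyve1 rose as well, by 1.13 under CR (SE 0.174, adjusted p = 3.81e-05) and by 0.56 under resveratrol (adjusted p = 0.0284), in a fit of every probe set on its own. Of the other probe sets of Csf1r, the dimmest of the 3 rose by 0.55 under CR (adjusted p = 0.0101) and 0.51 under resveratrol (adjusted p = 0.0197), and the middle one had 0.35 and 0.17 and did not pass.

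With age, 1 of the 9 genes rose in the heart and none fell, against 7.05% of 13285 genes that rose and 3.79% that fell (10.8% changed). The other 8 had lower means in old than in young control hearts without passing the test, and the median over the 9 was -0.251, beside 0.0306 over all genes. Csf1r averaged 4541 ± 643.0 in old control hearts and 3595 ± 344.4 in young control hearts (0.33, SE 0.101, adjusted p = 0.0347). Its dimmest probe set ran the other way, with 680.9 ± 105.3 in old control hearts and 891.1 ± 154.8 in young ones (-0.39, adjusted p = 0.0964), so the sign of this gene with age depended on the probe set. The call was also lost without young control hearts 1, 2 or 3 or old control hearts 1, 3 or 5 (adjusted p = 0.0574 to 0.0971). Lyz2 averaged 4020 ± 654.9 in old control hearts and 5318 ± 831.4 in young ones (-0.41, adjusted p = 0.0847, and 0.0497 without old resveratrol heart 3). Mrc1 averaged 990.8 ± 249.1 and 1252 ± 174.2 in old and young control hearts (-0.36, adjusted p = 0.0995, and 0.0353 without old control heart 3 or 0.0493 without old control heart 5). Cd163 averaged 290.3 ± 32.9 in old control hearts and 426.0 ± 119.9 in young ones (-0.52, adjusted p = 0.152). Signals of T and B cell genes spread widely among the young control hearts, as given below with the other cell types.

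**Figure D2:**
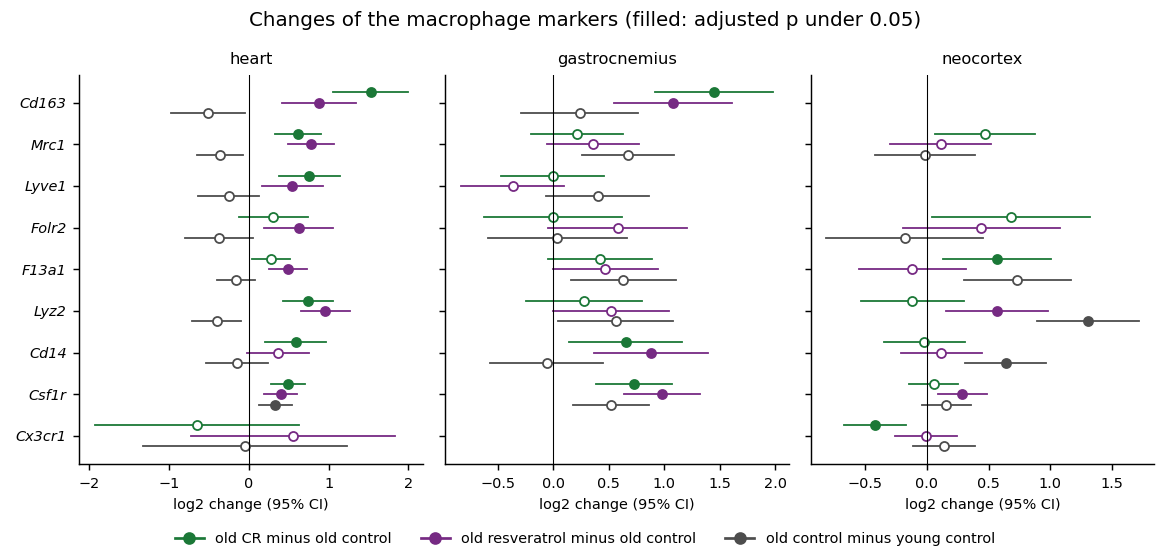
Log2 change of each gene (horizontal axes, with 95% confidence intervals) for old CR minus old control, old resveratrol minus old control and old control minus young control in each tissue, with filled points at an adjusted p under 0.05. In heart 6 genes rose under CR and 7 under resveratrol, in gastrocnemius the same 3 genes, Cd163, Csf1r and Cd14, passed under both diets, and rows without points did not pass the filter.

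Of 29 other markers of macrophages and monocytes tested in heart, 6 rose, none fell and 23 did not pass under CR (median 0.308). The share that changed was 20.7%, beside 22.0% of all genes. Under resveratrol 8 rose, none fell and 21 did not pass (median 0.414), a share of 27.6% beside 17.5% of all genes. With age none rose and 2 fell (median -0.0898), a share of 6.9% beside 10.8% of all genes. The complement-binding receptor Vsig4 rose by 1.27 under CR and 0.92 under resveratrol, and the carbonyl reductase Cbr2 by 1.01 and 1.2. With age Cbr2 had fallen by 1.28. The lysosomal marker Cd68 rose by 0.56 and 0.57 (adjusted p = 0.0166 and 0.0175), and Adgre1, the antigen F4/80, had 0.35 and 0.39 and passed under neither diet (adjusted p = 0.171 and 0.14). Of 11 tested ligands and partners of the markers, Csf1, a ligand of Csf1r, fell by 1.03 under CR (SE 0.124, adjusted p = 2.06e-06) and had -0.24 under resveratrol (adjusted p = 0.199). Csf1 was lower under CR than under resveratrol by the direct comparison (-0.79, adjusted p = 0.000558). Il34, the other ligand of Csf1r, had 1.03 and -0.33 and passed under neither diet (adjusted p = 0.168 and 0.733). Tlr4 and Ly96, with which Cd14 presents lipopolysaccharide, passed in no heart comparison, nor did Cx3cl1, the ligand of Cx3cr1.

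Markers of other cells and of RNA quality also moved in these hearts, and their part in the results was not tested. Summed signals, here and below, are over all genes of a list that a probe set represents, also those under the filter and not tested. Over all genes tested in heart, 22.0% changed under CR, 17.5% under resveratrol and 10.8% with age. Of 8 fibroblast genes, 4 rose under CR (50%) and 5 under resveratrol (62.5%), and 5 fell with age (62.5%, median -0.664). Their summed signal was 49610 to 56280 in old CR, 41920 to 56200 in old resveratrol, 20440 to 43180 in old control and 34800 to 52970 in young control hearts. Of 2 tested red blood cell genes 1 rose under each diet, Alas2, and the summed signal of that list was 5584 to 22690 in old CR and 3384 to 7989 in old resveratrol hearts, against 1876 to 3175 in old control hearts. Of 5 tested neutrophil genes none passed under either diet, with summed signals of 1715 to 3014 in old CR, 1097 to 2148 in old resveratrol and 1072 to 2867 in old control hearts. Camp, Cxcr2, Elane, Ltf, Mmp8 and Mpo were under the filter. Of 5 tested lymphatic endothelium genes none rose, and 1, Flt4, fell under CR (-0.57). Of 5 tested adipocyte genes 2 rose under CR, the hormone gene Adipoq (3.06) and the lipase gene Lipe, and none passed under resveratrol or with age (medians 1 under CR, 0.898 under resveratrol and -1.55 with age). The summed signal of the adipocyte list was 2252 to 8732 in old CR and 1732 to 6103 in old resveratrol hearts, against 1063 to 2634 in old control hearts. Of 4 tested platelet and megakaryocyte genes 1 rose under CR, the integrin gene Itga2b by 0.79, and none passed under resveratrol, with summed signals of 1051 to 2735 in old CR, 1095 to 1373 in old resveratrol and 838.2 to 1488 in old control hearts. Of 8 endothelial genes 1 rose and 3 fell under CR, and 2 rose and 2 fell under resveratrol, with Pecam1 rising (0.58 and 0.48) and Tie1 falling (-0.82 and -0.74) under both. Their summed signal was 11240 to 12900 in old CR, 12740 to 16010 in old resveratrol and 10890 to 15130 in old control hearts. Of 4 T cell and 6 B cell genes tested in heart, none passed under either diet or with age. The summed signal of the T cell list was 712.6 to 26800 (median 848.5) in young control hearts, against 610.2 to 1021 in old control hearts. That of the B cell list was 549.4 to 14500 (median 1465) in young control and 869.5 to 1320 in old control hearts. For beta-actin the log2 signal of the 3′ end minus that of the 5′ end, a sign of RNA quality, was 0.787 ± 0.111 in old CR and 0.819 ± 0.117 in old resveratrol hearts, against 1.39 ± 0.160 in old control hearts, and 0.719 ± 0.100 in young control hearts. The same difference for Gapdh was -0.262 ± 0.0122 in old CR and -0.217 ± 0.036 in old resveratrol hearts, against 0.0853 ± 0.157 in old control hearts, and -0.196 ± 0.0536 in young control hearts. For both transcripts old control hearts overlapped with no other group (two-sided exact permutation test, p = 0.00794, which is the lowest value possible with 5 arrays a group, adjusted p = 0.022). Spiked-in poly-A transcripts, a control of labelling, had a mean log2 signal of 9.4 ± 0.347 in old CR and 9.52 ± 0.412 in old resveratrol hearts, against 10.1 ± 0.441 in old control hearts, with overlap (exact permutation test, adjusted p = 0.0357 and 0.0672).

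In the gastrocnemius 3 of 8 tested genes rose under CR and none fell, against 17.5% of 12831 genes that rose and 13.6% that fell (31.2% changed). Under resveratrol 3 rose and none fell, against 9.42% that rose and 9.26% that fell (18.7% changed), and both times these were Cd163, Csf1r and Cd14. Medians over the 8 genes were 0.349 under CR and 0.546 under resveratrol, beside 0.104 and 0.0663 over all genes tested. Cd163 read 671.9, 1706, 1575, 950.9 and 811.2 in old CR muscles and 575, 905.1, 1412, 833.6 and 640.5 in old resveratrol muscles, against 366.8, 340.3, 357.6, 345 and 603.8 in old control muscles. Old control muscle 5 stood above its group and within the resveratrol values, and all CR muscles lay above all controls (10% of all genes had every CR muscle above every control muscle). Cd163 rose by 1.45 under CR (SE 0.255, adjusted p = 0.00029) and by 1.08 under resveratrol (SE 0.255, adjusted p = 0.00524). Csf1r read 2787, 3123, 4211, 3442 and 2512 in old CR muscles and 2722, 3713, 5592, 3252 and 4159 in old resveratrol muscles, all above the old control range of 1585 to 2213 (8.42% of all genes had every resveratrol muscle above every control muscle). It rose by 0.73 (SE 0.166, adjusted p = 0.00269) and 0.98 (SE 0.166, adjusted p = 0.000398). Cd14 averaged 349.9 ± 76.6 in old CR and 423.0 ± 157.3 in old resveratrol muscles, against 225.0 ± 62.0 in old control muscles, with overlap in both comparisons. Its rise was 0.65 under CR (SE 0.246, adjusted p = 0.0489) and 0.88 under resveratrol (SE 0.246, adjusted p = 0.0159). The call under CR ended without any 1 of 11 muscles (young control 1 and 2, old control 1, 3, 4 and 5, old CR 2, 3 and 4 and old resveratrol 1 and 5, adjusted p = 0.0519 to 0.128), and that under resveratrol without old resveratrol muscle 3 (adjusted p = 0.0556). Mrc1, Lyz2, F13a1 and Folr2 did not pass under either diet (adjusted p = 0.155 to 0.993). For Lyz2 under CR the muscles spread from 1408 to 3663, around the old control range of 1547 to 2127. F13a1 under resveratrol had 0.47 and passed only without old resveratrol muscle 1, which read 815.2 beside 1316 to 2517 in the other 4 (adjusted p = 0.155 with it, 0.0182 without it).

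**Figure D3:**
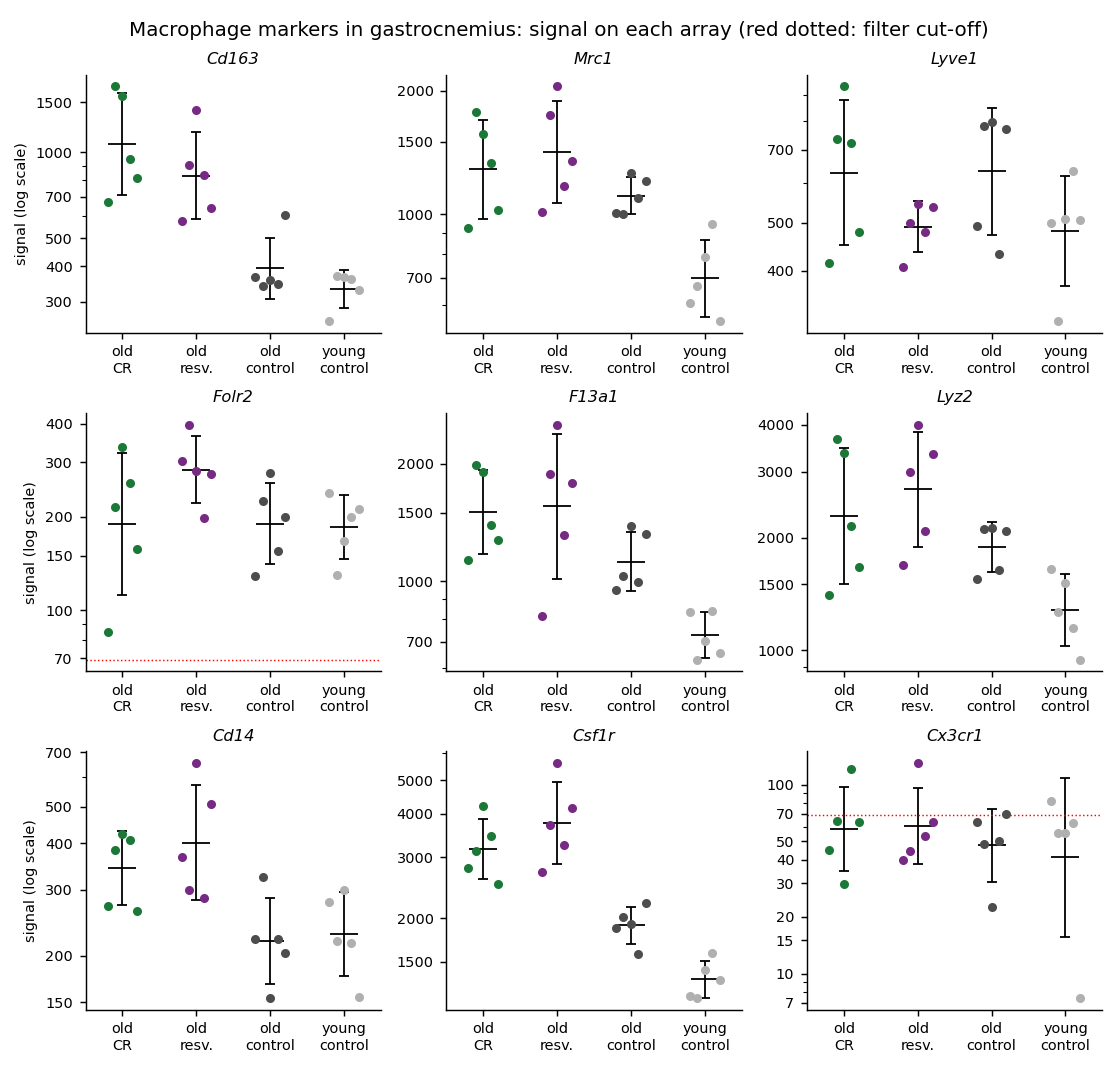
Signal of the 9 macrophage markers on each gastrocnemius array, drawn like the heart arrays, with a filter signal of 69.3. Csf1r lies above all old control muscles in all 10 muscles of the diet groups, and Mrc1 and F13a1 lie above all young control muscles in all 5 old control muscles.

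With age none of the 8 genes passed in gastrocnemius with limma, against 0.429% of 12831 genes, and at an unadjusted p under 0.05 4 of them did (13.9% of all genes). Mrc1 read 1004, 1002, 1259, 1096 and 1207 in old control muscles, against 606.5, 666.5, 784.1, 943.3 and 548.1 in young control muscles, without overlap (0.67, adjusted p = 0.139). F13a1 read 951.1 to 1386 in old control muscles, against 630.9 to 841.5 in young ones (0.63, adjusted p = 0.217). These were the 2 genes whose groups did not overlap, against 2.51% of all genes with every old muscle above every young one. Csf1r (0.52) and Lyz2 (0.56) had adjusted p values of 0.168 and 0.325. Without young control muscle 4, Mrc1 passed (adjusted p = 0.037). Old CR and old resveratrol muscles differed in none of the 8 genes by limma (0.561% of all genes passed, and none of the 8 had an unadjusted p under 0.05, as 13.2% of all genes had).

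Lyve1 gave a different answer with each of its probe sets in muscle. The brighter one averaged 658.2 ± 212.3 in old CR, 493.2 ± 55.6 in old resveratrol and 654.6 ± 177.1 in old control muscles, changes of -0.01 (adjusted p = 0.982) and -0.37 (adjusted p = 0.267). The dimmer one read 494.8, 802.1, 912.5, 647.8 and 464.7 in old CR muscles and 291.1, 512.8, 752.5, 397.3 and 408.9 in old resveratrol muscles, against 212.9, 249.4, 286.4, 275.5 and 274.5 in old control muscles. All 10 muscles of the diet groups lay above all 5 controls, as for 10% of all genes under CR and 8.42% under resveratrol. This probe set rose by 1.31 under CR (SE 0.225, adjusted p = 0.000204) and by 0.80 under resveratrol (SE 0.225, adjusted p = 0.0154). With the mean of both probe sets the gene passed under CR (adjusted p = 0.0257). For Csf1r the middle probe set (0.44 under CR, 0.53 under resveratrol) and the dimmest (0.32 and 0.26) had the sign of the representing one and did not pass.

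**Figure D4:**
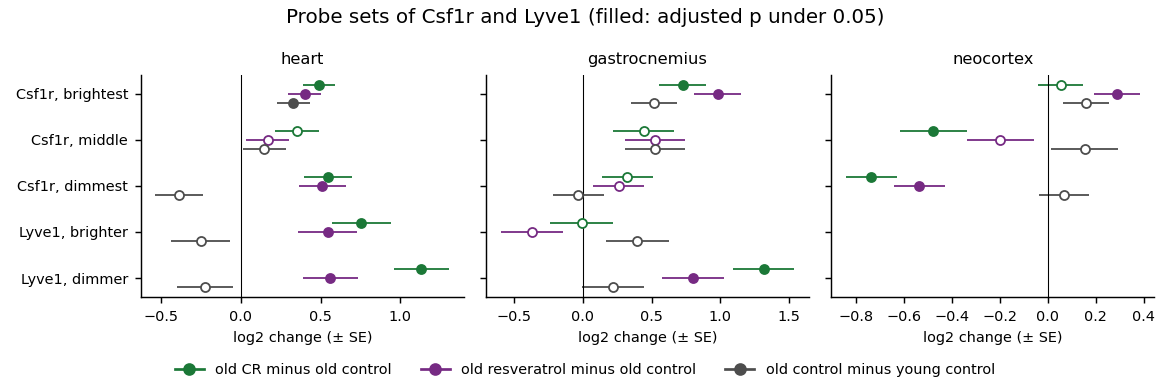
Log2 change of each probe set of Csf1r and Lyve1 (horizontal axes, ± SE) in the 3 tissues, with filled points at an adjusted p under 0.05 over all probe sets tested. In gastrocnemius the dimmer Lyve1 probe set rose by 1.31 under CR while the brighter had -0.01, and in neocortex the dimmest Csf1r probe set fell under both diets while the brightest rose under resveratrol.

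Of 25 other macrophage and monocyte markers tested in gastrocnemius, 7 rose and 2 fell under CR (median 0.573), and 6 rose and 2 fell under resveratrol (median 0.489). The shares that changed were 36% and 32%, beside 31.2% and 18.7% of all genes, whose medians were 0.104 and 0.0663. C1qa, a chain of complement C1q, rose by 2.51 and 2.64 and the membrane protein Laptm5 by 1.07 and 1.41. The Fc receptor Fcgr1 rose under CR (1.38) and Mpeg1, a pore-forming protein of macrophages, under resveratrol (1.48). The ones that fell were the protease Lgmn (-0.94 and -0.78) and the Tam-receptor ligand Gas6 (-0.77 and -1.12). Cd68 had -0.05 and 0.09 and Adgre1 had 0.37 and 0.40, and neither passed (adjusted p = 0.186 to 0.873). Csf1 rose by 0.61 under resveratrol (adjusted p = 0.0363) and had 0.03 under CR (adjusted p = 0.915). Of 6 tested neutrophil genes 4 rose under CR (66.7%, beside 31.2% of all genes that changed), S100a8 by 2.40. Their summed signal was 1909 to 2995 in old CR muscles, 1125 to 2514 in old resveratrol muscles and 778.8 to 1418 in old control muscles. Camp, Cxcr2, Lcn2, Mmp8 and S100a9 were under the filter. Lymphatic endothelium genes rose in 2 of 4 cases under each diet, Pdpn by 0.89 and 1.17 and Mmrn1 by 0.83 and 0.86, while 5 of 8 endothelial genes fell under each. These were shares of 50% and 62.5%, beside 31.2% of all genes that changed under CR and 18.7% under resveratrol. The poly-A transcripts had a mean log2 signal of 9.92 ± 0.522 in old CR and 10 ± 0.166 in old resveratrol muscles, against 6.78 ± 0.294 in old control and 7.41 ± 0.568 in young control muscles. The difference between 3′ and 5′ probe sets of Gapdh was -0.27 ± 0.0262 in old CR and -0.275 ± 0.0275 in old resveratrol muscles, against 3.229 in old control muscle 1 and -0.218 to 0.537 in the other old control muscles. For both measures neither diet group overlapped with the old control muscles (exact permutation test, p = 0.00794, adjusted p = 0.022 for each). The part of these values in the results was not tested.

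In the neocortex 2 of 7 tested genes rose with age and none fell, against 1.08% of 13057 genes that rose and 0.383% that fell (1.46% changed). Lyz2 read 385.5, 628.8, 528.2, 873.2 and 623.1 in old control cortices, against 280.5, 220.2, 201, 259.9 and 233.3 in young control cortices. The groups did not overlap, and the rise of 1.31 (SE 0.201, a fold of 2.47, adjusted p = 0.00129) held without any 1 array. Cd14 read 220, 248.9, 296.2, 253.6 and 238.8 in old control cortices, against 188, 141.6, 146.8, 189.6 and 144.5 in young control cortices, without overlap (0.64, SE 0.160, adjusted p = 0.0459). Its call was lost without any 1 of 12 cortices (young control 2, 3 and 5, old control 2, 3, 4 and 5, old CR 3, 4 and 5 and old resveratrol 1 and 2, adjusted p = 0.0509 to 0.116). F13a1 averaged 117.0 ± 28.9 in old control and 69.5 ± 14.1 in young control cortices and did not pass (0.73, adjusted p = 0.0799), and it did without old control cortex 5 (adjusted p = 0.0192), which read 67.0 beside 121.9 to 138.6 in the other 4. Cx3cr1 (0.14, adjusted p = 0.663) and Csf1r (0.16, adjusted p = 0.472) did not pass, nor did Mrc1 and Folr2. The groups of 2 genes did not overlap, Lyz2 and Cd14, against 2.50% of all genes with every old cortex above every young one.

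Under CR 1 of the 7 genes rose and 1 fell in old neocortex, against 13.1% of 13057 genes that rose and 17.5% that fell (30.6% changed). Cx3cr1 read 691.3, 509.4, 607.6, 828.2 and 617.2 in old CR cortices, against 868.5, 816.8, 879.9, 851.5 and 881.7 in old control cortices, where 4 of 5 CR cortices lay below all controls. It fell by 0.42 on the log2 scale (SE 0.122, adjusted p = 0.0111), and its second probe set fell by 0.36 (SE 0.133, adjusted p = 0.0498). F13a1 averaged 169.2 ± 20.8 in old CR and 117.0 ± 28.9 in old control cortices, and rose by 0.57 (SE 0.211, adjusted p = 0.0437). The call of F13a1 was lost without old control cortices 1, 4 or 5 or old CR cortices 1, 3, 4 or 5 (adjusted p = 0.0549 to 0.151). Mrc1 averaged 206.4 ± 33.7 in old CR and 151.4 ± 40.2 in old control cortices (0.47, adjusted p = 0.0723), and passed without old control cortex 2 (0.0488), old control cortex 4 (0.0408) or old CR cortex 5 (0.0481), after quantile normalization (0.0342) and with the replicate number as a block (0.0457), a fit in which F13a1 did not pass (0.0578). Folr2 (0.68, adjusted p = 0.0976) passed without old control cortex 2 (0.0293), and without that array 4 of the 7 genes passed. For Folr2 the old control cortices averaged 55.1 ± 25.2, under the filter signal of 57.3, and old CR cortices averaged 85.1 ± 25.4. It was tested because its geometric mean over the 20 cortices was 64.1.

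Under resveratrol 2 of the 7 genes rose in old neocortex and none fell, against 12.3% that rose and 13.9% that fell (26.2% changed). Lyz2 averaged 914.5 ± 325.4 in old resveratrol cortices and 607.8 ± 178.1 in old control cortices (0.57, SE 0.201, adjusted p = 0.0379). Csf1r averaged 4829 ± 813.5 in old resveratrol cortices and 3912 ± 152.9 in old control cortices (0.29, SE 0.0952, adjusted p = 0.027). The call of Lyz2 was lost without old control cortices 1, 2, 3 or 5 or old resveratrol cortices 1, 2 or 4 (adjusted p = 0.0512 to 0.137), and that of Csf1r without old control cortices 2 or 5 or old resveratrol cortices 3 or 4 (adjusted p = 0.0521 to 0.0992), so that neither passed without old control cortex 2, old control cortex 5 or old resveratrol cortex 4. Set directly against each other, old CR and old resveratrol cortices differed in 3 of the 7 genes, 1 higher and 2 lower under CR (9.28% of all genes passed, 3.66% higher and 5.62% lower). F13a1 read 185.3, 137.5, 189.6, 170.9 and 162.8 in old CR cortices, against 96.6, 136.4, 86.2, 114.1 and 96.0 in old resveratrol cortices (CR minus resveratrol 0.69, adjusted p = 0.0423), without overlap, as for 3.35% of all genes. Lyz2 was lower under CR by the same measure (-0.69, adjusted p = 0.0329), with 547.6 ± 98.7 in old CR and 914.5 ± 325.4 in old resveratrol cortices, as was Cx3cr1 (-0.41, adjusted p = 0.0355), with 650.8 ± 118.4 and 861.7 ± 124.0. Of these 3 calls, all were lost without old CR cortices 3 or 5 or old resveratrol cortex 4, and also without old CR cortex 2, with adjusted p values of 0.0502 to 0.112. The calls of F13a1 and Cx3cr1 were lost without old resveratrol cortices 1 (0.077 and 0.0715) or 3 (0.097 and 0.0693), that of Lyz2 without old resveratrol cortex 2 (0.0694), and that of F13a1 also without old CR cortices 1 (0.0808) or 4 (0.0717) or old resveratrol cortex 5 (0.0719).

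**Figure D5:**
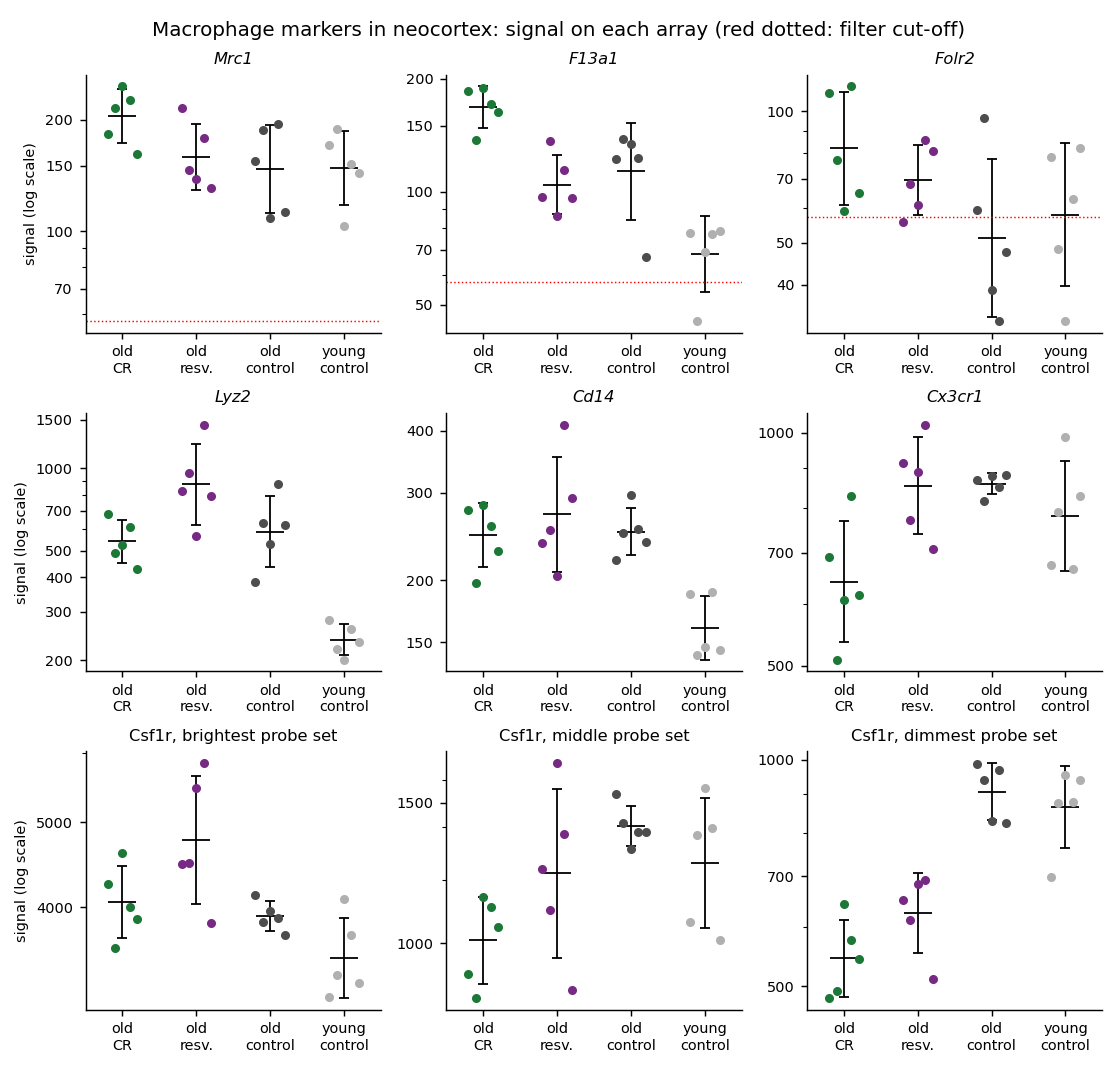
Signal on each neocortex array of 6 macrophage markers, each by its representing probe set, and of the 3 probe sets of Csf1r (vertical axes on a log scale), drawn like the heart arrays, with a filter signal of 57.3. All 5 old control cortices lie above all 5 young control cortices for Lyz2 and Cd14, and the dimmest probe set of Csf1r lies lower in both diet groups than in old controls.

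The probe sets of Csf1r disagreed in neocortex. The representing one, the brightest, had 0.05 under CR (adjusted p = 0.708) and rose under resveratrol. The dimmest probe set read 482.1, 493.1, 642.7, 575.8 and 543.7 in old CR cortices and 649.8, 611.4, 682.6, 691.6 and 511.1 in old resveratrol cortices, against 987, 941, 827.8, 969 and 823.5 in old control cortices. All 10 cortices of the diet groups lay below all 5 controls, with changes of -0.74 (SE 0.106, adjusted p = 2.35e-05) and -0.54 (SE 0.106, adjusted p = 0.000684). Every CR cortex lay below every control for 11.5% of all genes, and every resveratrol cortex for 9.84%. The middle probe set also fell under CR (-0.48, SE 0.139, adjusted p = 0.0133) and had -0.20 under resveratrol (adjusted p = 0.33). A direction for Csf1r in neocortex under either diet therefore cannot be given apart from the probe set.

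Of 25 other macrophage and monocyte markers tested in neocortex, 9 rose and none fell with age (median 0.363), among them Mpeg1 (0.82), Tyrobp (0.70) and Cd68 (0.65). That was a share of 36%, beside 1.46% of all genes that changed. Under CR 1 rose and 5 fell, including C1qb (-0.42) and Mpeg1 (-0.42), and under resveratrol 8 rose and 1 fell, including Fcgr3 (0.67), Laptm5 (0.59) and the fall of Gas6 (-0.50). The shares of these markers that changed were 24% under CR and 36% under resveratrol, beside 30.6% and 26.2% of all genes. In the direct comparison 10 of the markers were lower under CR than under resveratrol and none was higher (40%, beside 9.28% of all genes that changed). Of 11 microglia genes 3 rose with age (Trem2 by 1.47, Sall1 by 0.86 and Sparc by 0.61), 3 fell under CR (Tmem119 by 0.53, Fcrls by 0.47 and Olfml3 by 0.78) and 1 rose under resveratrol (Gpr34, 0.88). The shares of microglia genes that changed were 27.3% with age, 27.3% under CR and 9.09% under resveratrol, beside 1.46%, 30.6% and 26.2% of all genes. The summed signal of the microglia genes was 6003 to 8143 in old CR, 7776 to 9610 in old resveratrol, 7802 to 10030 in old control and 5990 to 7058 in young control cortices. Of 9 tested ligands and partners 3 fell under each diet, among them ligands of 2 of the receptors. That was 33.3% each time, beside 30.6% of all genes that changed under CR and 26.2% under resveratrol. Cx3cl1 had -0.58 under CR (adjusted p = 3.91e-05) and -0.45 under resveratrol (adjusted p = 0.000742), and Il34 had -0.35 and -0.39 (adjusted p = 0.0125 and 0.00627). Csf1 passed in no comparison of the neocortex. The beta-actin difference was 0.708 ± 0.0448 in old CR and 0.887 ± 0.0939 in old resveratrol cortices, against 0.546 ± 0.0641 in old control cortices, without overlap (exact permutation test, p = 0.00794 for each). The poly-A transcripts had a mean log2 signal of 9.14 ± 0.47 in old CR and 9.81 ± 0.233 in old resveratrol cortices, against 8.77 ± 0.292 in old control cortices. Resveratrol cortices did not overlap with the controls (exact permutation test, adjusted p = 0.022), CR cortices did (adjusted p = 0.248), and CR and resveratrol cortices differed with overlap (adjusted p = 0.0357). The part of these values in the results was not tested.

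Whether a gene changed differently in 2 tissues was tested in a fit of all 60 arrays, and 7 of 63 such differences passed. Under CR the change of Csf1r was greater in gastrocnemius than in neocortex by 0.67 (SE 0.180, adjusted p = 0.00449, with 22.2% of 11455 genes passing), and under resveratrol by 0.69 (adjusted p = 0.00549, 14.3% of genes). Under resveratrol Csf1r changed less in heart than in gastrocnemius by its brightest probe set (-0.58, adjusted p = 0.0157, 20.8% of 12084 genes). The middle probe set had 0.17 in heart and 0.53 in muscle. The dimmest had 0.51 in heart and 0.26 in muscle, so that the difference has the other sign. Heart and gastrocnemius were compared in 8 of the genes, heart and neocortex in 7, and gastrocnemius and neocortex in 6. No tested gene passed under CR between heart and gastrocnemius (25.2% of genes) or heart and neocortex (10.5%), under resveratrol between heart and neocortex (6.94%) or with age between gastrocnemius and neocortex (0.445%). The 4 other differences were of age. Lyz2 had -0.41 in heart, 0.56 in gastrocnemius and 1.31 in neocortex, with heart minus gastrocnemius at -0.97 (adjusted p = 0.048, 6.73% of genes) and heart minus neocortex at -1.71 (adjusted p = 0.000617, 4.54% of 11710 genes). Mrc1 differed by -1.03 between heart and gastrocnemius (adjusted p = 0.0115), and F13a1 by -0.90 between heart and neocortex (adjusted p = 0.0413). For Cd163 the changes in heart and gastrocnemius differed by 0.08 under CR (SE 0.784) and -0.20 under resveratrol, with errors that leave room for large differences of either sign. In fits of only the 40 arrays of the tissues compared, 5 of these calls changed. Csf1r (0.44, adjusted p = 0.0271) and Lyz2 (0.85, adjusted p = 0.025) passed for heart minus neocortex under CR, and Cd14 for heart minus neocortex with age (-0.79, adjusted p = 0.0466). Lyz2 with age no longer passed for heart minus gastrocnemius (adjusted p = 0.0751). Lyve1 passed for heart minus gastrocnemius under resveratrol (0.91, adjusted p = 0.0356) by its brighter probe set, with 0.54 in heart and -0.37 in muscle, while the dimmer one had 0.56 in heart and 0.80 in muscle, so that the difference has the other sign. The error for Cd163 was 0.352 in such a fit and its differences did not pass (adjusted p = 0.905 and 0.764). After quantile normalization of all 60 arrays F13a1 with age passed for heart minus gastrocnemius (-0.79, adjusted p = 0.0416). It did not pass for heart minus neocortex in that setting (adjusted p = 0.0512) or with an offset before log2 (adjusted p = 0.0624).

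Over the 20 hearts, the genes whose log2 signal ran most like each marker were found by Pearson's r among the genes tested, as a description, since the arrays share the differences between groups and each array's scaling. Mrc1 ran with Anxa1 (r = 0.895), Tm4sf1 (0.879) and Cytl1 (0.874). Lyz2 ran with S100a4 (0.91), Lyz1 (0.901) and Wfdc17 (0.893), and Lyz1 is a near-identical copy whose RNA may reach the same probes, so the signal of Lyz2 is uncertain to that extent. F13a1 had the same S100a4 (0.861) and Wfdc17 (0.853) and then Tyrobp (0.848), and among the markers it ran closest to Lyz2 (r = 0.879). Cd163 ran with Timp4 (0.874), Prpf18 (0.863) and Pim3 (0.861), and Timp4 (0.826) also came second for Lyve1, after Tsc22d1 (0.828) and before Cyp4f13 (0.795). Csf1r ran with Plp2 (0.923), Rapgef5 (0.91) and Pgk1 (0.896), and Cd14 with Rab31 (0.826), Pf4 (0.818) and Ypel5 (0.807). For Folr2 (Jkamp, Trappc2 and Ubap1) and Cx3cr1 (Fam151a, Sirpa and Iah1) the best values were 0.752 and 0.711. Within the set, Cd163 was closest to Lyve1 (0.755) and had -0.125 with Cx3cr1.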

How the data were processed

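RNA of 3 tissues was hybridised to 60 arrays. Intensity values deposited by the authors are linear signals of GCOS 1.2, which they scaled to a 2% trimmed mean of 500. Precision is limited by 5 arrays per group. Groups were taken from the sample labels, and dates of labelling or scanning were not used here. Signals under 1 (0.192% of all) were set to 1 and log2 was taken. Of 45101 probe sets, 64 controls, 932 with several symbols and 9160 with none were left out of the gene tests, with names from GEO's platform annotation. The probe set with the highest mean log2 signal represented a gene, and genes under the 40th percentile of a tissue were not tested. The 4 groups were fitted with limma 3.58.1 (lmFit, eBayes with trend) in R 4.3.3, after the script was tested on simulated data, with Benjamini-Hochberg adjustment over 13285, 12831 or 13057 genes. Differences between tissues came from 1 fit of all arrays, which treats tissues as independent animals. Array values were compared by two-sided exact permutation, adjusted over 36 tests. Tables were made with pandas 2.3.3 under Python 3.11.15, permutation tests with scipy 1.17.1 (numpy 2.4.6), and figures with matplotlib 3.10.9.

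The 9 genes and all lists were chosen with earlier results of these data known. Named beyond them were Adgre1, Cd68, Itgam, Csf1, Il34, Cx3cl1, Tlr4 and Ly96, up to 3 changed genes per list and comparison, and the 3 genes most like each marker in heart. Alternatives were quantile normalization, an offset of 16 before log2, no filter or the 60th percentile, Student's test of the methods (called the methods' t-test) on log2 and unlogged signal, eBayes without trend, the 2 groups alone, array weights, other uses of the probe sets, a replicate block, 2 outlying arrays of heart and of gastrocnemius left out, and each array left out in turn. A fit of only the 40 arrays of a pair of tissues was added after seeing the data.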

Additional observations from a re-analysis of the deposited data

Results flagged for a closer look

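Each group of 5 arrays was searched for an array far from the others (a gap over 0.71 of the group's range), which chance gives in about 1 of 20 groups, and 9 of 132 groups had one. Cd163 read 603.8 in old control gastrocnemius 5, and 340.3 to 366.8 in the other 4. F13a1 read 1725 in old CR heart 2 (others 2304 to 2450), 66.96 in old control cortex 5 (others 121.9 to 138.6) and 45.18 in young control cortex 2 (others 69.23 to 78.43). Cx3cr1 read 27.32 in old control heart 2 (others 98.92 to 125). The 3′ to 5′ log2 difference of beta-actin was 0.437 in old CR gastrocnemius 2 (others 0.08642 to 0.1431) and 1.396 in old control gastrocnemius 1 (others -0.1752 to 0.05288). That of Gapdh was 3.229 in old control gastrocnemius 1 (others -0.2177 to 0.5374) and 0.1944 in young control gastrocnemius 4 (others -0.2772 to -0.2629).

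Changes of a gene that differed between tissues by a test of the difference were of age for Lyz2 (heart minus gastrocnemius -0.965, heart minus neocortex -1.712), Mrc1 (heart minus gastrocnemius -1.033) and F13a1 (heart minus neocortex -0.8965). Csf1r differed under CR (gastrocnemius minus neocortex 0.6715) and under resveratrol (heart minus gastrocnemius -0.5784, gastrocnemius minus neocortex 0.6909). Its probe sets disagreed in neocortex, and for heart minus gastrocnemius under resveratrol the dimmest one had the other sign.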

How the results depend on the processing

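Of 1032 values of the 36 called results under other settings, 852 kept direction and call, 179 kept the direction and lost the call, and 1 turned round: Csf1r in neocortex under resveratrol had -0.1484 with the mean of its probe sets (adjusted p = 0.345), among which 2 fell or were lower. The count of genes called with age in heart was 0 in place of 1 after quantile normalization, with the methods' t-test on log2 or unlogged signal (adjusted, or at their unadjusted p of 0.01), with eBayes without trend, with only the 2 groups compared and when a gene's probe sets were averaged. In heart under resveratrol it was 4 in place of 7 with the t-test on log2 signal (adjusted or not) and the adjusted t-test on unlogged signal. In gastrocnemius it was 3 in place of 0 with age (both unadjusted t-tests and array weights) and 1 in place of 3 under resveratrol (t-test on unlogged signal, adjusted or not). In neocortex with age it was 1 in place of 2 with no filter, eBayes without trend, the mean of probe sets or every probe set on its own, and 0 with both adjusted t-tests. Under CR there it was 1 in place of 2 with no filter, array weights, the adjusted t-test on log2 signal and both unadjusted t-tests. With the filter at the 60th percentile (a signal of 204.2) it was also 1, because F13a1, with a mean of 107.9, was not tested. Under resveratrol it was 1 in place of 2 after quantile normalization, with no filter, eBayes without trend or only the 2 groups, and 0 with all t-tests and the mean of probe sets. For CR minus resveratrol it was 1 in place of 3 with all t-tests, eBayes without trend, only the 2 groups or the mean of probe sets. Apart from that filter, the cause of these changes in count was not tested.

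Leaving out each array in turn gave counts in heart of 0 to 2 with age, 5 to 7 under CR, 5 to 7 under resveratrol and 0 to 1 for CR minus resveratrol. In gastrocnemius they were 0 to 1, 2 to 3, 2 to 4 and 0, and in neocortex 1 to 2, 1 to 4, 0 to 2 and 0 to 3. Of the 7 differences between tissues, the alternatives gave 6 to 10.

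Arrays with the same replicate number showed no clear pairing. Their deviations from group means correlated with medians of 0.00673 in heart, 0.0126 in gastrocnemius and 0.0305 in neocortex, and of -0.0172 to 0.00619 between tissues. Such values cannot tell whether tissues with the same number came from the same animal. With the replicate number as a block the counts were 1, 6, 6 and 0 in heart (age, CR, resveratrol, CR minus resveratrol), 0, 2, 3 and 0 in gastrocnemius and 2, 2, 2 and 2 in neocortex, and a block shared by tissues gave 7 differences. With it Lyve1 in heart under resveratrol (adjusted p = 0.0636), Cd14 in gastrocnemius under CR (0.0634) and F13a1 in neocortex under CR (0.0578) and for CR minus resveratrol (0.0569) did not pass, and Mrc1 in neocortex under CR did (0.0457).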
